A study of Arabidopsis thaliana with 12 samples.

Results

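The nuclear photosynthesis genes described here are the nuclear genes for the antenna proteins, the photosystem subunits, the small subunit of Rubisco, the mobile electron carriers and the chloroplast ATP synthase of Arabidopsis thaliana. They were taken by locus from a list of 53 drawn up by function, with no threshold on a measured value. The expression table holds 32 of them among its 16947 loci, and the remaining 21 were not analysed here. By complex, 2 of 6 photosystem I antenna genes were present, 7 of 15 photosystem II antenna genes, 11 of 12 photosystem I subunits, 7 of 10 photosystem II subunits, 3 of 4 electron carriers and 2 of 2 ATP synthase subunits. None of the 4 Rubisco small subunit loci was among them. All 32 passed the filter on low values and entered the tests over 9889 loci.

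Antenna proteins bind chlorophyll and pass light energy to the reaction centres of photosystem II and photosystem I, which drive electrons from water through plastocyanin to ferredoxin, while the proton gradient formed on the way drives ATP synthase. The genes studied here are nuclear, so their products are made in the cytosol and imported into the chloroplast. In green seedlings their transcripts belong to the most abundant of the cell and are known to depend on light and on the state of the chloroplast.

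RNA of whole 5-day-old Col-0 seedlings, grown in continuous light at 21 °C after 2 days at 4 °C, was hybridised to 12 Affymetrix arrays. Wild type was compared with gmi1-1, a T-DNA insertion line in GMI1 (AT5G24280), in order to ask whether GMI1 takes part in the transcriptional response to gamma rays. Each genotype was left untreated or received a gamma dose of 100 Gy from cobalt-60, delivered at 27 to 34 Gy per minute, with harvest after 1.5 h; the 4 groups hold 3 replicates each, which the labels call biological. The mutant is represented by 1 insertion line, and the labels do not say whether untreated plates travelled to the source or whether replicates came from separate sowings, so p-values measure the spread between these samples.

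All values are log2 expression as deposited, and the array medians lay between 4.23 and 4.81. The library labelled gmi1-1 untreated replicate 1 carried the repair gene BRCA1 (AT4G21070), known to be induced by DNA damage, at 10.54, against 2.70 and 2.90 in replicates 2 and 3 of its group. Its label is therefore in doubt. BRCA1 on gmi1-1 irradiated replicate 1 was 10.56, against 10.99 to 12.08 on the other irradiated arrays, and does not itself put that label in doubt. That library is set aside with the first only as the other gmi1-1 library of the same number. Both are called doubted here, and results with gmi1-1 are given with and without both. GMI1 itself was between 1.24 and 1.66 on all 6 arrays labelled gmi1-1, against 1.87 to 2.53 in untreated and 9.97 to 10.92 in irradiated wild type. The gmi1-1 irradiated replicate 3 array had an interquartile range of 4.70, against 5.28 to 5.83 elsewhere, and the 5′ minus middle difference of its GAPDH controls, a sign of RNA quality, was -1.30 against -0.47 to -0.17 on the others.

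The photosynthesis genes stood near the top of the measured range on every array. Of the 32, 28 were at or above the 95th percentile of all loci on each of the 12 arrays, and 30 at or above the 90th. Single values ran from 7.58 to 15.10, while the highest value of any locus on an array ran from 14.21 to 15.10. Members also varied less within groups than most loci, with a median within-group SD of 0.25, against 0.36 over all loci tested. The smallest SD was that of ATPD, at 0.074, and the largest that of LHCB2.3, at 0.91.

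Irradiation left no photosynthesis gene past the test in wild type. In limma, 0 of 32 members had an adjusted p under 0.05 and 0 had an unadjusted p under 0.05, whereas 4.54% of all loci were called and 18.2% had an unadjusted p under 0.05. The median log2 difference of the members was -0.10, beside -0.11 over all loci, and 29 members lay below 0. That direction depends on the scaling, since 21 of 32 lay above 0 after quantile normalization, but 30 lay below 0 after median centring. It depends on single arrays as well. Without wild type untreated replicate 1, 19 members lay above 0, and without irradiated replicate 2, 14 did. Leaving out any other single wild type array left 1 to 4 members above 0. With array weights 22 lay above 0. The 95% interval of the difference lay within 1 log2 unit on both sides of 0 for 29 members, but within 0.5 for only 7. The exceptions at 1 log2 unit were LHCB2.3, LHCB6 and PETE1. These intervals come from a fit without pairing by replicate number. With replicate number as a block, the lowest bound over the members was -1.14 in place of -1.98.

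In gmi1-1 as labelled, again 0 of 32 members passed, with 0 at an unadjusted p under 0.05. The share of all loci called there was 0%, and 13.2% of loci had an unadjusted p under 0.05. The members' median was -0.07 beside -0.23 over all loci, with 22 members below 0 as deposited, 16 after quantile normalization and 7 after median centring. Without gmi1-1 untreated replicate 1 alone, the median turned to 0.01 beside -0.28 over all loci, with 19 members above 0. In that fit 0 of 32 members and 327 of 9889 loci were called. Without both doubted libraries the median was -0.10 beside -0.345 over all loci, with 0 of 32 members and 750 of 9889 loci called. Leaving out gmi1-1 irradiated replicate 3 as well gave -0.185 beside -0.14, with 0 of 32 members and 343 of 9889 loci called.

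Over both genotypes together, 10.4% of all loci and 0 of 32 members were called for irradiation. Again 0 members had an unadjusted p under 0.05 in limma, beside 27.7% of loci. A fit with replicate number as a block called 1 member, LHCB2.3, as given below. The median was -0.075 for the members and -0.17 for all loci. Here 31 of 32 intervals lay within 1 log2 unit of 0 and 22 within 0.5, LHCB2.3 being the gene with the wider interval. The difference of the irradiation effect between gmi1-1 and wild type was called for 0 members and for 0.0101% of loci. At an unadjusted p under 0.05 there were 0 members, beside 1.86% of loci. The member median was 0.05 as deposited and -0.05 after quantile normalization. In whole seedlings, less RNA per green cell and fewer green cells cannot be told apart.

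**Figure D1:**
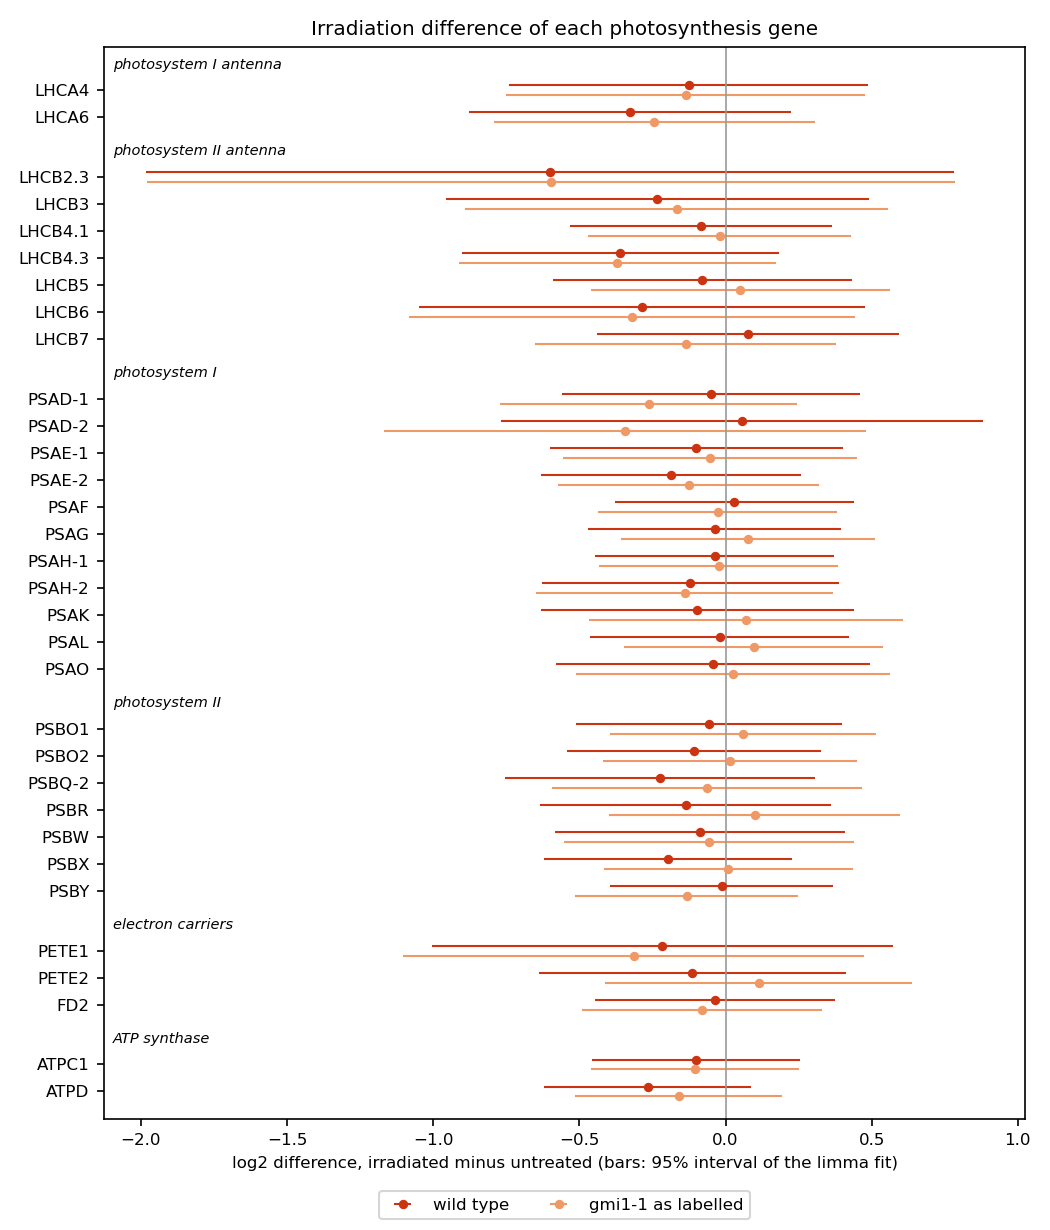
Log2 difference between irradiated and untreated arrays for each of the 32 photosynthesis genes (x axis), in wild type and in gmi1-1 as labelled (points, 3 arrays per group), with the 95% interval of the limma fit as bars and the genes grouped by complex (y axis). Every interval crosses 0, and the widest are those of LHCB2.3.

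Among the antenna genes of photosystem I, LHCA4 (AT3G47470) encodes a protein of the peripheral antenna that holds low-energy chlorophylls. In the order of replicates 1, 2 and 3, which holds for all lists of values here, LHCA4 read 13.62, 12.91 and 12.90 in untreated wild type, 13.34, 12.70 and 13.01 in irradiated wild type, 13.67, 13.29 and 13.18 in untreated gmi1-1 and 13.66, 12.90 and 13.17 in irradiated gmi1-1. Replicate 1 was the highest array of each group, and treated and untreated groups overlapped. The irradiation difference over both genotypes was -0.13 (SE 0.20, adjusted p = 0.683, limma).

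LHCA6 (AT1G19150), whose product helps link photosystem I to the NADH dehydrogenase-like complex, gave 11.59, 11.54 and 11.79 in untreated wild type and 11.26, 11.23 and 11.45 in irradiated wild type. These groups did not overlap, a pattern that 17.3% of all loci showed in the downward and 10.8% in the upward direction in wild type. In gmi1-1 it read 11.33, 11.32 and 11.47 untreated and 11.44, 11.46 and 10.49 irradiated, so that only the third irradiated array lay below the untreated ones. Neither difference passed, with -0.33 in wild type (SE 0.25, adjusted p = 0.519) and -0.24 in gmi1-1 (SE 0.25, adjusted p = 0.660).

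The antenna genes of photosystem II included the member with the widest spread within groups. LHCB2.3 (AT3G27690) encodes a component of the main trimeric antenna, and near-identical LHCB2 copies may share signal with its probes. It read 11.94, 10.61 and 10.79 in untreated wild type and 11.50, 9.67 and 10.37 after irradiation. In gmi1-1 it read 12.32, 10.87 and 11.18 untreated and 12.18, 10.40 and 10 irradiated. The replicate 1 array of every group lay more than 1 log2 unit above the other arrays of that group, and treated and untreated groups overlapped in both genotypes.

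For LHCB2.3 the difference was -0.60 ± 0.63 (SE) in wild type and -0.60 ± 0.63 in gmi1-1, and over both -0.60 (SE 0.45, adjusted p = 0.397). In both genotypes each irradiated array read below the untreated array of its number. With replicate number as a block in the limma fit, the estimate over both genotypes was -0.60 (SE 0.17). It then passed with adjusted p = 0.0448, when 1485 of 9889 loci were called. With all 4 arrays of replicate 1 left out, the estimate over both genotypes was -0.75 (SE 0.22) and passed with adjusted p = 0.0421, when 1983 loci were called. Without the 2 doubted libraries it was -0.71 (SE 0.37, adjusted p = 0.196).

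LHCB3 (AT5G54270), the other trimer component measured, read 14.09, 13.24 and 13.31 untreated and 13.73, 12.77 and 13.44 irradiated in wild type. In gmi1-1 the values were 14.15, 13.51 and 13.70 untreated, then 14.11, 13.38 and 13.37 irradiated. Replicate 1 was the highest array of each group, treatments overlapped, and the irradiation difference over both genotypes was -0.20 (SE 0.23, adjusted p = 0.594).

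Monomeric antenna proteins sit between the trimers and the photosystem II core. LHCB6 (AT1G15820), which encodes CP24, read 13.64, 12.80 and 13.01 untreated and 13.28, 12.35 and 12.96 irradiated in wild type, against 13.57, 13.06 and 13.17 untreated and 13.59, 12.88 and 12.37 irradiated in gmi1-1. Its difference over both genotypes, -0.30 (SE 0.25, adjusted p = 0.434), was smaller than the gap between replicate 1 and the other arrays of each group. LHCB4.3 (AT2G40100), a CP29 isoform, had the smallest p of all members for irradiation over both genotypes. It read 10.81, 10.47 and 10.58 in untreated and 10.11, 10.07 and 10.60 in irradiated wild type, and 10.59, 10.30 and 10.47 in untreated and 10.50, 10.13 and 9.62 in irradiated gmi1-1.

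The LHCB4.3 difference was -0.36 (SE 0.25) in wild type and -0.37 (SE 0.25) in gmi1-1, or -0.365 over both (SE 0.18, adjusted p = 0.202), and 1 irradiated array of each genotype reached into the untreated range. The CP29 isoform LHCB4.1 (AT5G01530) was at -0.05 (SE 0.15) over both. LHCB5 (AT4G10340), which encodes CP26, was at -0.015 (SE 0.17). LHCB7 (AT1G76570), a little-studied relative of the antenna genes, was at -0.03 (SE 0.17).

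The 11 photosystem I subunits had log2 differences for irradiation over both genotypes from -0.16 to 0.04, with a median of -0.03 as deposited and 0.04 after quantile normalization. PSAD-1 (AT4G02770), a stromal subunit that docks ferredoxin, read 13.49, 13.14 and 12.96 untreated and 13.24, 13.20 and 13.00 irradiated in wild type, where the groups overlapped. The mutant arrays gave 13.59, 13.24 and 13.27 untreated and 13.49, 13.08 and 12.74 irradiated, the last being below all others, and the difference over both genotypes was -0.16 (SE 0.16, adjusted p = 0.549). PSAE-2 (AT2G20260), another stromal subunit, read 12.72, 12.17 and 12.38, then 12.42, 11.95 and 12.34 after irradiation in wild type.

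In gmi1-1 PSAE-2 gave 12.49, 12.33 and 12.51 untreated and 12.34, 12.38 and 12.23 irradiated, and its difference over both genotypes was -0.16 (SE 0.14, adjusted p = 0.489). The second isoforms of both stromal subunits lay within 1 SE of these values, with PSAD-2 (AT1G03130) at -0.14 (SE 0.27) and PSAE-1 (AT4G28750) at -0.08 (SE 0.16). Probes of such near-identical copies, as for PSAH and PSBO below, may share signal. PSAH-1 (AT3G16140) and PSAH-2 (AT1G52230), the subunit at which the mobile antenna docks, were at -0.03 (SE 0.13) and -0.13 (SE 0.16). The plastocyanin-docking subunit PSAF (AT1G31330) was at 0.002 (SE 0.13). The membrane subunits PSAG (AT1G55670), PSAK (AT1G30380), PSAL (AT4G12800) and PSAO (AT1G08380) lay between -0.013 and 0.04.

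For photosystem II, the 7 differences over both genotypes ran from -0.14 to 0.002, with a median of -0.07 as deposited and 0.04 after quantile normalization. PSBQ-2 (AT4G05180), a protein of the oxygen-evolving complex, read 13.60, 13.11 and 13.17 untreated and 13.23, 12.93 and 13.05 irradiated in wild type. In gmi1-1 its values were 13.62, 13.10 and 13.32 untreated and 13.66, 13.29 and 12.90 irradiated. Groups overlapped in both genotypes, and the difference over both was -0.14 (SE 0.17, adjusted p = 0.601).

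PSBX (AT2G06520), a small membrane subunit, read 14.17, 13.82 and 13.89 untreated and 13.79, 13.67 and 13.83 irradiated in wild type, and 13.99, 13.87 and 14.09 untreated and 14.04, 13.71 and 14.23 irradiated in gmi1-1. Groups overlapped in both genotypes, and the difference over both was -0.09 (SE 0.14, adjusted p = 0.674). PSBO1 (AT5G66570) and PSBO2 (AT3G50820), the isoforms of the manganese-stabilising protein, were at 0.002 (SE 0.15) and -0.045 (SE 0.14). PSBR (AT1G79040), PSBW (AT2G30570) and PSBY (AT1G67740) lay between -0.07 and -0.02.

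Among the electron carriers, the plastocyanin isoform PETE1 (AT1G76100) read 11.78, 11.01 and 11.14 untreated and 11.38, 11.12 and 10.78 irradiated in wild type. It read 11.62, 10.96 and 11.15 untreated and 11.57, 11.11 and 10.11 irradiated in gmi1-1, with a difference over both genotypes of -0.265 (SE 0.26, adjusted p = 0.509). The groups overlapped in both genotypes. PETE2 (AT1G20340), the main plastocyanin, had a difference of 0.00 over both (SE 0.17), made of -0.11 in wild type and 0.11 in gmi1-1.

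FD2 (AT1G60950), the main leaf ferredoxin, read 14.32, 14.02 and 14.05 untreated and 14.24, 14.00 and 14.04 irradiated in wild type. In gmi1-1 it read 14.40, 14.06 and 14.23 untreated and 14.34, 14.00 and 14.11 irradiated. Groups overlapped, and the difference over both genotypes, -0.06 (SE 0.13, adjusted p = 0.791), was smaller than the within-group SD of 0.13 to 0.17.

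ATP synthase held the member with the tightest groups. ATPD (AT4G09650), the delta subunit of the chloroplast enzyme, read 12.98, 12.84 and 12.82 in untreated and 12.59, 12.54 and 12.71 in irradiated wild type. It read 12.95, 12.92 and 12.98 in untreated and 12.86, 12.71 and 12.80 in irradiated gmi1-1. All irradiated arrays lay below all untreated arrays of their genotype, which in gmi1-1 held for 10.6% of loci in that direction and for 1.64% in the other.

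ATPD still missed the threshold, with -0.27 in wild type (SE 0.16, adjusted p = 0.413), -0.16 in gmi1-1 (SE 0.16, adjusted p = 0.654) and -0.21 over both (SE 0.11, adjusted p = 0.249). The gamma subunit ATPC1 (AT4G04640) read 13.67, 13.49 and 13.56 untreated and 13.52, 13.40 and 13.50 irradiated in wild type, and 13.70, 13.56 and 13.66 untreated and 13.63, 13.47 and 13.51 irradiated in gmi1-1. Its groups overlapped in both genotypes, and the difference over both was -0.10 (SE 0.12, adjusted p = 0.581).

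No photosynthesis gene passed the test between genotypes. Between untreated groups, 0 of 32 members and 0.0101% of loci were called in limma, and between irradiated groups again 0 of 32 and 0.0101%. In both, 0 members had an unadjusted p under 0.05, beside 0.425% of loci untreated and 7.73% irradiated. Members tended to read higher in gmi1-1 as labelled. Untreated, 28 of 32 lay above 0, with a median of 0.14 (all loci -0.09). Irradiated, 26 lay above 0, with a median of 0.16 (all loci -0.24). After quantile normalization the medians were 0.09 untreated and 0.05 irradiated, with 26 and 21 members above 0. After median centring they were 0.155 and 0.41, with 28 and 31 above 0. As deposited but without both doubted libraries, the medians were 0.04 untreated and 0.055 irradiated. Without gmi1-1 irradiated replicate 3 too, the irradiated median was -0.003.

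Only 2 members had genotype groups that did not overlap. PSAH-1 read 12.95, 12.88 and 12.83 in irradiated wild type and 13.15, 13.06 and 12.99 in irradiated gmi1-1, a difference of 0.18 (SE 0.19, adjusted p = 0.780). Such a separation was upward for 0.374% and downward for 6.96% of loci. LHCA6, listed above, read lower in all untreated gmi1-1 arrays than in untreated wild type, with a difference of -0.27 (SE 0.25, adjusted p = 1), where 8.13% of loci separated downward and 1.3% upward.

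**Figure D2:**
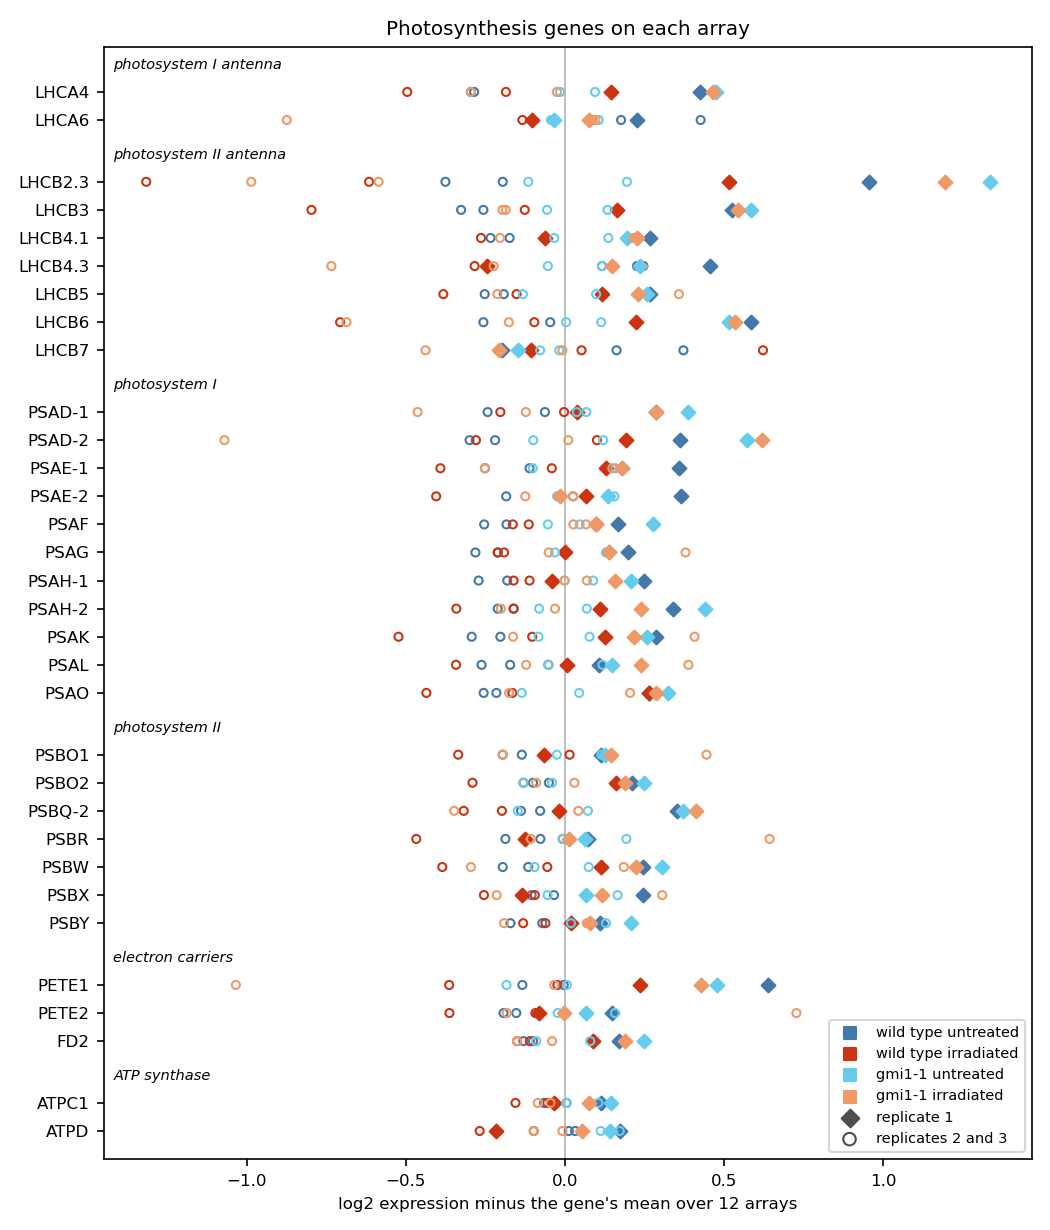
Log2 expression of each of the 32 photosynthesis genes on each of the 12 arrays, as the deviation from the gene's mean over all arrays (x axis), with genes grouped by complex (y axis), colours for the 4 groups, filled diamonds for replicate 1 and open circles for replicates 2 and 3. Diamonds lie to the right for most genes, and LHCB2.3 has the widest spread.

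More members were called for the replicate number than for treatment or genotype, but in unlike fits. The replicate fit held a term for replicate 1. The main fits for treatment and genotype held none, so their spread includes the replicate difference. Replicate 1 was the highest of the 3 arrays for 30 of 32 members in untreated wild type, 24 in irradiated wild type, 25 in untreated gmi1-1 and 21 in irradiated gmi1-1. Of all loci, replicate 1 was the highest for 30.0%, 17.4%, 30.5% and 42.5% in the same order of groups. In all 4 groups at once this held for 19 members, and for 4.93% of all loci. The mean over the 32 members was 13.04 to 13.27 on the replicate 1 arrays and 12.67 to 13.08 on the other 8.

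In a limma fit with a term for replicate 1, 4 of 32 members were higher in replicate 1, beside 1.63% of loci called higher and 7.15% called in either direction. All 4 are antenna genes. LHCB2.3 was higher by 1.50 (SE 0.18, adjusted p = 0.0013), LHCB6 by 0.695 (SE 0.17, adjusted p = 0.0309), LHCB3 by 0.68 (SE 0.15, adjusted p = 0.0223) and LHCA4 by 0.565 (SE 0.13, adjusted p = 0.0267). Of the 32, 31 lay above 0, with a median of 0.25 beside -0.07 over all loci, and the exception was LHCB7 at -0.25 (SE 0.16, adjusted p = 0.403). After quantile normalization 25 lay above 0 and 7 members were called, beside 973 of 9890 loci (489 higher). After median centring 31 lay above 0 and 8 were called, beside 839 of 9897 loci (308 higher).

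By complex, the median difference for replicate 1 was 0.31 in the photosystem I antenna, 0.33 in the photosystem II antenna, 0.32 in photosystem I, 0.155 in photosystem II, 0.26 in the electron carriers and 0.083 in ATP synthase, the last turning to -0.02 after quantile normalization. Other differences included PETE1 at 0.665 (SE 0.19, adjusted p = 0.0608) and PSAD-2 at 0.65 (SE 0.21, adjusted p = 0.0927), whereas PETE2 was at 0.05 (SE 0.18) and PSBR at 0.0075 (SE 0.17). For 11 members all 4 replicate 1 arrays lay above the other 8, a separation that 1.82% of loci showed upward and 3.51% downward. These were LHCA4, LHCB2.3, LHCB3, LHCB6, PSAD-2, PSAF, PSAH-2, PSAO, PSBO2, PETE1 and FD2.

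LHCB2.3 was called whichever of the 12 arrays was left out, with adjusted p from 0.0018 to 0.0086, while the other 3 calls depended on single arrays. The member count was 1 without any one of wild type untreated replicates 1, 2 and 3, wild type irradiated replicate 1 and gmi1-1 untreated replicates 1 and 2, beside 206 to 389 of 9889 loci called. It was 2 without gmi1-1 untreated replicate 3, beside 404 of 9889 loci called (89 higher). It was 12 without gmi1-1 irradiated replicate 3, where the loci called also rose, to 1416 of 9889 (258 higher). Without both doubted libraries, which are themselves replicate 1 arrays, LHCB2.3 alone was called, at 1.36 (SE 0.25, adjusted p = 0.0338), and the median over members was 0.32. Within wild type alone LHCB2.3 was higher by 1.36 (adjusted p = 0.070) and within gmi1-1 alone by 1.64 (adjusted p = 0.0958), so no member passed in 6 arrays.

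**Figure D3:**
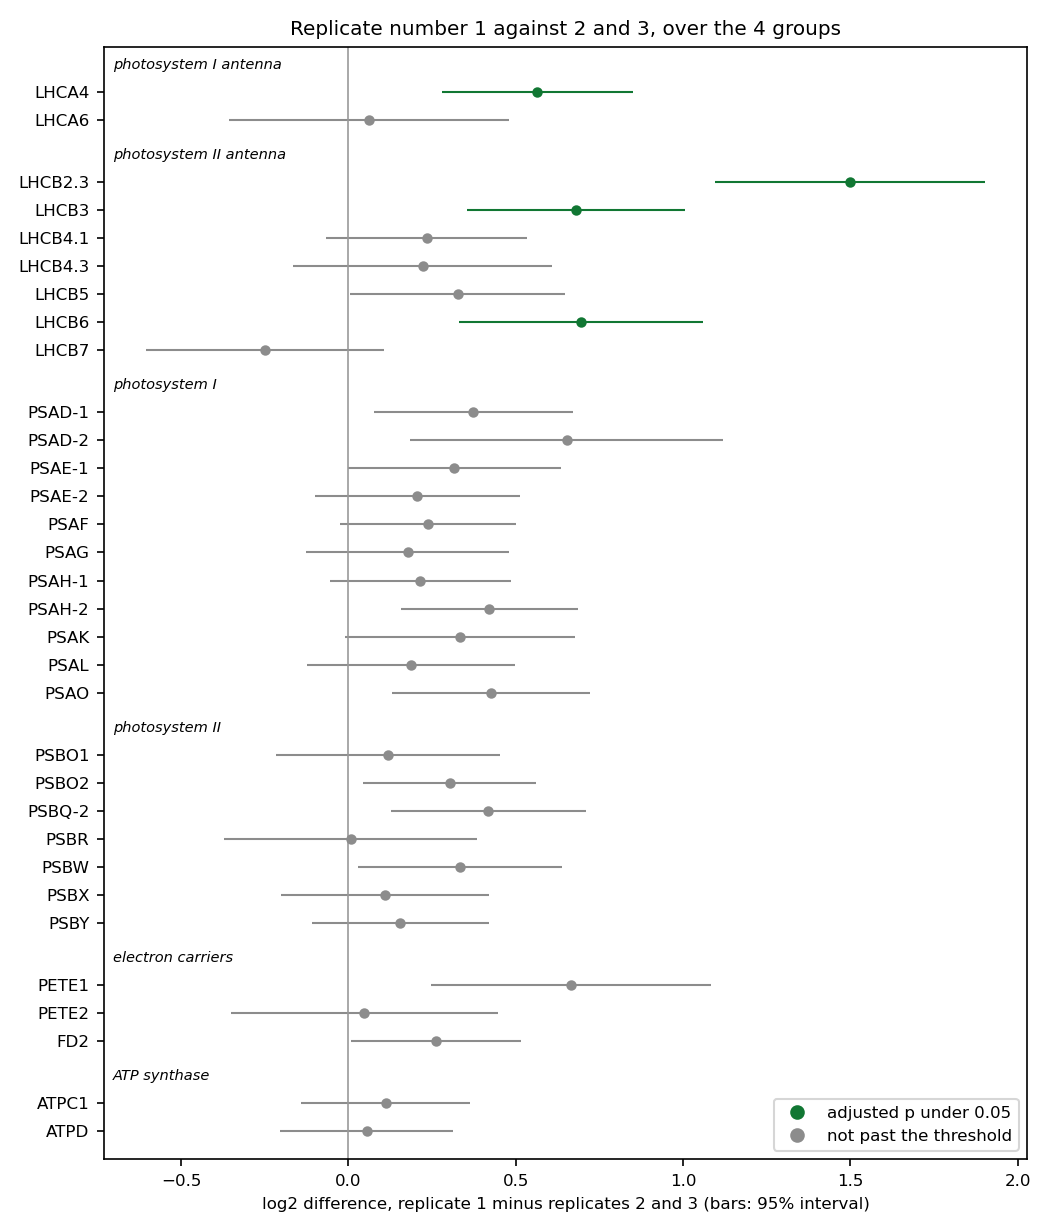
Log2 difference between the 4 replicate 1 arrays and the 8 arrays of replicates 2 and 3, adjusted for group (x axis), for each photosynthesis gene (y axis, by complex), with 95% intervals as bars and green for an adjusted p under 0.05. The 4 green points are LHCA4, LHCB2.3, LHCB3 and LHCB6, and 31 of 32 points lie above 0.

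**Figure D4:**
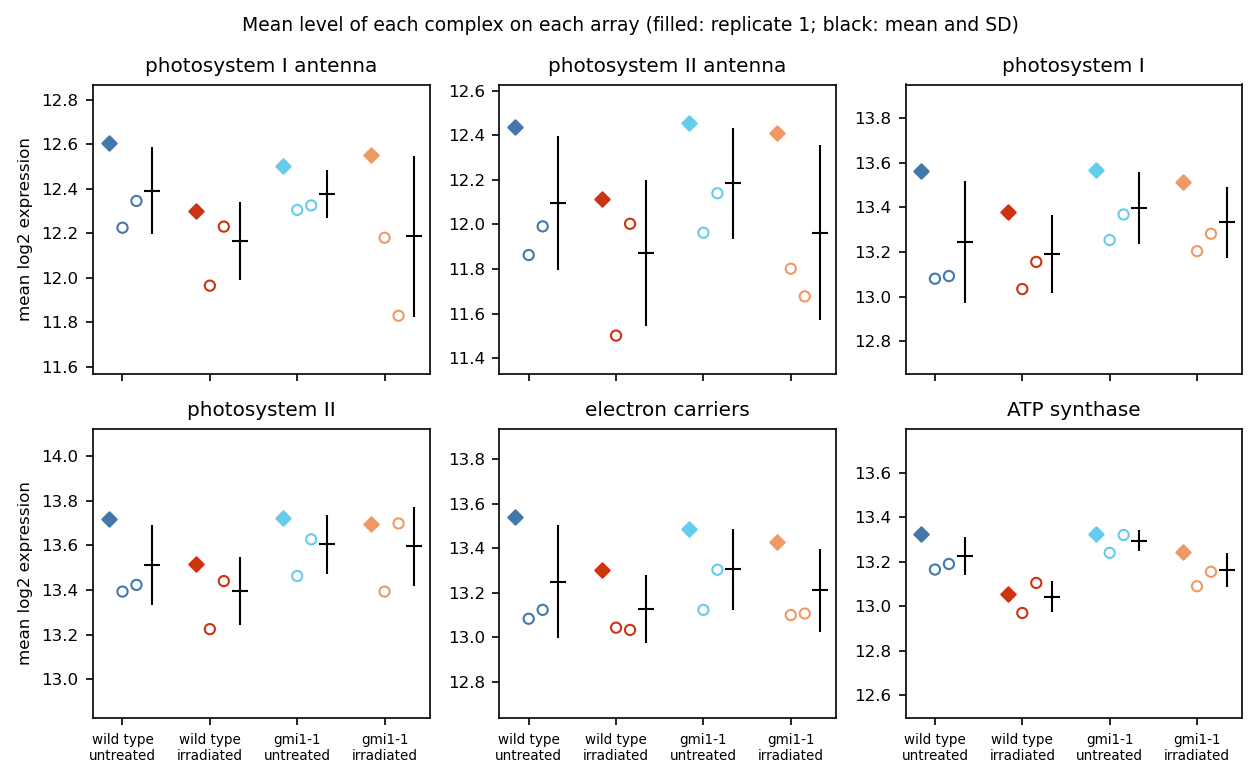
Mean log2 expression of the members of each complex on each array (y axis) in the 4 groups (x axis), with filled diamonds for replicate 1, open circles for replicates 2 and 3, and the mean and SD of the 3 arrays in black. The y axes of the 6 panels span the same length but start at different levels. The filled diamond is the highest point of its group in most panels, and the ATP synthase panel shows the smallest spread.

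Some markers of other tissues moved with the replicate number as well. Of 8 root markers present, 5 reached the level for a test, while the root meristem genes PLT1 and PLT2 were near background. NRT2.1, also too low for a test, went the other way from the falls below. It read 2.85 to 3.23 on the replicate 1 arrays and 1.82 to 2.75 on the others. The mean of these 5 was 5.29 to 5.75 on the replicate 1 arrays and 5.33 to 6.51 on the others. EXPA7, a root hair expansin, was lower in replicate 1 at -1.51 (adjusted p = 0.0175), as was the root hair gene SHV2 at -0.86 (adjusted p = 0.0159). Both lie low on the scale: EXPA7 read 2.99 to 3.46 on the replicate 1 arrays, under the filter value of 4, and SHV2 ran from 3.48 to 5.55 over all arrays. The endodermal gene CASP1 was at -0.62 (adjusted p = 0.188), and the root patterning genes SHR and SCR were at 0.02 and 0.01. Of 4 tested markers of shoot epidermis and stomatal lineage, the guard cell regulator FAMA was lower in replicate 1 at -0.93 (adjusted p = 0.0154), while PDF1, SPCH and TMM did not pass, at 0.08, 0.10 and -0.19. FAMA was low as well, at 3.76 to 5.37 over all arrays. The part of tissue proportions in the replicate 1 difference of the photosynthesis genes was not tested.

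One array spread these genes apart by their place on the scale. On gmi1-1 irradiated replicate 3, 8 members lay above all other 11 arrays, namely LHCB5, PSAG, PSAK, PSAL, PSBO1, PSBR, PSBX and PETE2, whose means on the other arrays ran from 13.48 to 14.42. Another 7 lay below all other arrays, namely LHCA6, LHCB4.3, LHCB7, PSAD-1, PSAD-2, PSBQ-2 and PETE1, whose means elsewhere ran from 8.06 to 13.28. Over all loci, 2.44% lay above and 46.0% below all other arrays there.

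The plastocyanin isoforms parted on that array. PETE2 read 15.10, against 14.37 and 14.19 in replicates 1 and 2 of its group, and PETE1 read 10.11, against 11.57 and 11.11. PSBR behaved as PETE2 did, at 14.98 against 14.35 and 14.23, and PSAD-2 as PETE1 did, at 10.83 against 12.52 and 11.91. The narrow interquartile range and the GAPDH value of this array, given above, moved with this pattern, and their part in it was not tested.

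**Figure D5:**
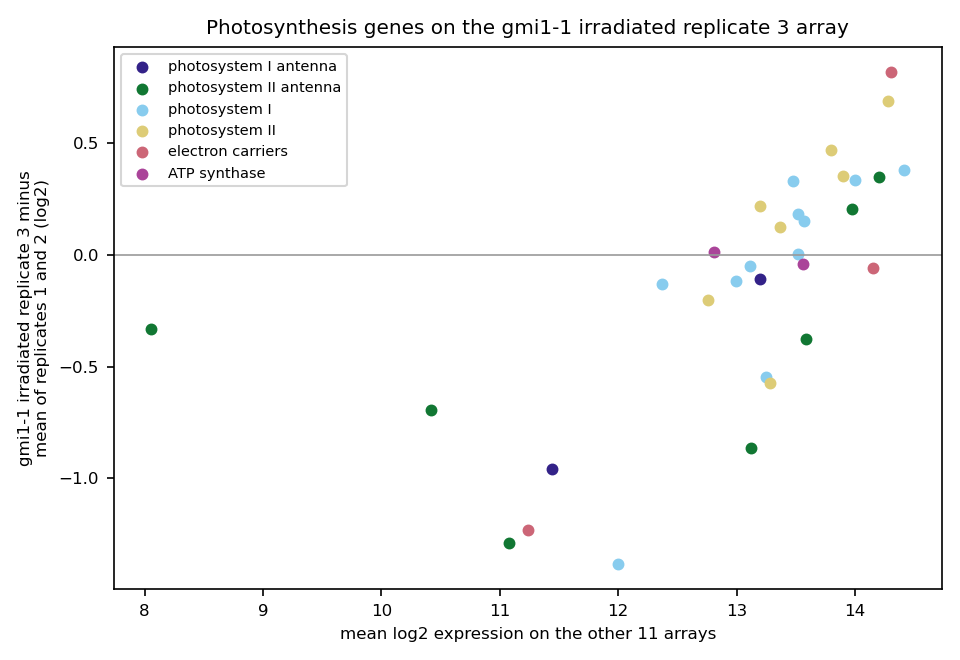
For each photosynthesis gene, the log2 value on the gmi1-1 irradiated replicate 3 array minus the mean of replicates 1 and 2 of its group (y axis) against its mean log2 expression on the other 11 arrays (x axis), coloured by complex. Genes at the upper end of the scale tend to lie above 0, up to PETE2, and those lower on the scale below 0, down to PSAD-2.

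Other arrays stood apart without such a split. On wild type irradiated replicate 2, 20 members read below all other arrays and 0 above, while over all loci 8.69% lay below and 26.5% above. On the library labelled gmi1-1 untreated replicate 1, 12 members read above all others and 0 below, beside 2.14% of loci above and 5.01% below. Across the 12 arrays most members followed each other: the correlation of a member with the mean of the other 31 was highest for LHCB3 (r = 0.99) and PSAH-2 (r = 0.98) and lowest for LHCB7 (r = -0.47) and LHCA6 (r = 0.10). These correlations describe arrays that share normalization and are given without a p-value. Outside the set, of 9806 loci the patterns most like the members' mean were those of AT5G47190 (r = 0.93), NDPK1 (AT4G09320, r = 0.91), emb1473 (AT1G78630, r = 0.91), AT1G77940 (r = 0.91) and THI1 (AT5G54770, r = 0.90).

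Genes that serve the photosynthetic apparatus were likewise not called for irradiation over both genotypes. For chlorophyll synthesis, all 11 measured genes of 17 listed lay below 0 over both genotypes as deposited and 9 of 11 after quantile normalization. Their median was -0.27 beside -0.17 over all loci, and 0 of 11 passed in limma, although GUN4 had an unadjusted p of 0.0472. GUN4 (AT3G59400), which activates magnesium chelatase, was at -0.54 (SE 0.24, adjusted p = 0.175), the cyclase subunit CRD1 (AT3G56940) at -0.27 (SE 0.13, adjusted p = 0.195) and HEMA1 (AT1G58290), which starts tetrapyrrole synthesis, at -0.41 (SE 0.22, adjusted p = 0.249). Without both doubted libraries the list's median was -0.31 beside -0.23 over all loci, again with 0 called. Without gmi1-1 irradiated replicate 3 it was -0.12 beside -0.10, with 10 of 11 genes below 0, and without all 3 of these libraries -0.195 beside -0.12, with 0 called in both.

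Of 16 Calvin-Benson cycle genes listed 10 were measured, and their median was -0.08 (0.03 after quantile normalization), with the regulatory protein gene CP12-2 (AT3G62410) at -0.21 (SE 0.13, adjusted p = 0.297). Of 11 photorespiration genes 2 were measured, HPR1 (AT1G68010) at -0.16 (SE 0.15) and SHM1 (AT4G37930) at 0.025 (SE 0.14). Of 13 genes of electron flow and photoprotection 7 were measured, with a median of -0.19. The smallest p was that of PGR5 (AT2G05620), needed for cyclic electron flow, at -0.33 (SE 0.21, adjusted p = 0.336), and ELIP1 (AT3G22840), an early light-induced protein gene, was at -0.39 (SE 0.29, adjusted p = 0.401).

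Of 16 regulators of photosynthesis genes 12 were measured, with differences from -1.07 to 0.63 and a median of -0.12 (0.07 after quantile normalization). The activator GLK1 (AT2G20570) was at -1.07 (SE 0.40, adjusted p = 0.109), its paralogue GLK2 (AT5G44190) at -0.475 (SE 0.26, adjusted p = 0.249) and HY5 (AT5G11260), a light-signalling factor, at 0.63 (SE 0.26, adjusted p = 0.139). In the fit for replicate 1, the chlorophyll synthesis gene GSA2 (AT3G48730) was higher by 0.53 (SE 0.14, adjusted p = 0.0495), and no gene of the other 4 lists passed. Among the tissue markers, the stomatal lineage gene TMM fell by 0.93 (adjusted p = 0.0129) and the epidermal gene PDF1 fell by 0.59 (adjusted p = 0.0357) after irradiation over both genotypes, 1 of the 4 shoot markers passing after quantile normalization. No root marker of 5 passed, although SHV2 was at -0.96 (adjusted p = 0.0549), and the 1 seed storage gene present read 1.1 to 2.03. Their part in the members' irradiation values was not tested.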

How the data were processed

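Per the submitters' processing notes, the authors used GCRMA, which corrects background, normalizes between arrays and compresses low values. The deposited log2 values stand for 1 probe set each, named by an Arabidopsis locus. The sources used here do not name the array design, the probe sets or the GCRMA version, so no coordinates are given. Groups and replicate numbers came from the sample titles. The number of arrays limits the precision.

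From these values, loci with a log2 value of 4 or more on at least 3 of the 12 arrays were kept, and a mean per group was fitted over all 12 arrays with limma 3.58.1 (lmFit, eBayes) in R 4.3.3. Tests are two-sided with Benjamini-Hochberg adjustment over all loci tested, and a gene is called at an adjusted p under 0.05. The replicate fit added 1 term for replicate number 1. The fit was tested on simulated data. Complexes and lists are given as counts and medians with no test.

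Named in full by array are the 2 members of each complex with the smallest p for irradiation over both genotypes and any called member, and up to 3 genes of each further list. The remaining values given by array (PSAH-1, and PETE2, PSBR and PSAD-2 on 1 array) were chosen after their values were seen. Members and lists were chosen with earlier results of these data known. Gene names matched RefSeq symbols or synonyms by locus tag.

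Same-numbered arrays of both genotypes deviated together (r over loci 0.67, 0.60 and 0.54 untreated, 0.41, 0.17 and 0.26 irradiated), so the numbers pair the genotype comparisons, and a replicate block changed no member's call there. Alternatives were the block, other filters, quantile normalization, median centring, an intensity trend, array weights, only the groups compared, and arrays left out.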

Additional observations from a re-analysis of the deposited data

How the results depend on the processing

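Under the alternatives run, the only member called for irradiation or genotype was LHCB2.3, for irradiation over both genotypes, with the replicate block (-0.60, SE 0.17, adjusted p = 0.0448; 1 member) and with all replicate 1 arrays left out (1 member). Over all loci, same-numbered untreated and irradiated arrays deviated together in some pairs only (r 0.49, 0.07 and 0.53 in wild type, 0.14, 0.05 and 0.06 in gmi1-1). Over the 32 members they did so in every pair, with r 0.70 to 0.89 in wild type and 0.35 to 0.88 in gmi1-1. The main fit for irradiation does not use this pairing, so its SEs and intervals include the spread between replicate numbers. With the block, 0 members passed within either genotype, and 1 in each had an unadjusted p under 0.05 in limma. Leaving out single arrays, 0 members were called in these 6 comparisons. Median centring moved the members' median to 0.28 for the difference of the irradiation effect and to 0.41 for gmi1-1 against wild type irradiated. Quantile normalization moved these medians to -0.05 and 0.05. Members called for replicate 1, 4 as reported, numbered 21 with array weights (20 higher, LHCB7 lower), 12 with an intensity trend, 8 with median centring, 7 with quantile normalization and 1 to 12 with single arrays left out. By alternatives chosen after seeing the data, they numbered 1 without both doubted libraries, 1 without these and gmi1-1 irradiated replicate 3, and 0 in either genotype alone. Of 2212 comparisons of named members' values with their alternatives, 35 lost and 18 gained a call, and 0 called values reversed. All loci called for irradiation in wild type, 449 as reported (317 rose, 132 fell), numbered 1407 with array weights, 297 with the filter at 6, 711 without all replicate 1 arrays, 726 and 857 without the doubted arrays, and 561 (318 rose, 243 fell) with median centring. In gmi1-1, 0 became 417 with array weights, 1027 without all replicate 1 arrays, and 750 and 343 without the doubted arrays. Over both genotypes, 1026 (404 rose, 622 fell) became 2594 with array weights, 1983 without all replicate 1 arrays, 1889 without both doubted libraries, and 1041 (550 rose, 491 fell) with quantile normalization. For replicate 1, 707 (161 higher, 546 lower) became 2853 with array weights, 793 with an intensity trend, 839 with median centring, 199 and 414 without the doubted arrays, 44 in wild type alone, 13 in gmi1-1 alone, and 973 (489 higher, 484 lower) with quantile normalization. With single arrays left out these 4 counts ran from 111 to 591, 0 to 327, 474 to 1528 and 206 to 1416. The cause of these shifts was not tested.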
